A study of Homo sapiens with 18 samples.

Results

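The cytosolic ribosomal protein genes were followed in U87 glioma cells with and without Erastin. The members were the protein-coding genes with symbols of the form RPL or RPS followed by a number, with an A or X ending where there is one, and RPLP0, RPLP1, RPLP2 and RPSA. These were 77 of the 58302 genes in the deposited table, 46 of the large and 31 of the small ribosomal subunit. U87 (U87MG) is an established human glioblastoma line, and all libraries came from it. The 2 control libraries came from cells under normal growth conditions, and the labels name no vehicle for them. The 2 Erastin libraries came from cells given 10 μM Erastin for 72 h, a small molecule that blocks cystine uptake and induces ferroptosis. The study measured total RNA by paired-end sequencing, to ask how transcription changes in ferroptotic cells beside changes of chromatin contacts.

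A cytosolic ribosome is built from a large and a small subunit, each of ribosomal RNA and many proteins, most of them needed in equal numbers. The messages of nearly all ribosomal proteins begin with a C followed by a run of pyrimidines, the 5′ terminal oligopyrimidine (TOP) motif, through which the kinase mTOR and the protein LARP1 control their translation. These genes are highly expressed in dividing cells and have left many pseudogenes in the genome, so their reads are hard to place.

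The libraries held between 29412656 and 31513519 counts on genes. The table counted reads on the exons of each gene, without regard to strand, and a read that matched several places or several genes was not counted. Levels are given as CPM, the counts divided by the library's total over the genes tested and by a TMM composition factor of 0.971 to 1.02, and set to a common scale. After removal of genes with few counts 16751 genes were tested, and their median log2 fold change was -0.003. Among the 10 glial and glioma markers, VIM and CD44 were abundant and GFAP, AQP4, S100B and SOX2 had at most 81 counts in a library, with AQP4 at 0 in all 4. The 5 immune markers had at most 12 counts in a library, and AIF1 and CD3E were among those at 0. In bulk RNA, fewer cells and less RNA per cell cannot be told apart, and a relative level says nothing of the total RNA per cell.

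Of all counts in control cells, the members together took 2.87% and 2.79% (95% Wilson intervals 2.866% to 2.878% and 2.786% to 2.798%). In the Erastin libraries they took 2.59% and 2.59% (2.580% to 2.591% and 2.582% to 2.593%). Both Erastin libraries lay below both control libraries. The intervals cover counting error only, since reads without molecular identifiers are not independent molecules. As group means the share was 2.83% ± 0.0564 in control and 2.59% ± 0.00145 in Erastin-treated cells (SD, n = 2), a ratio of 0.913. For 2 libraries against 2, the smallest two-sided p of an exact permutation test is 0.333. The large subunit genes took 1.88% ± 0.0546 and 1.71% ± 0.0232, and the small subunit genes 0.949% ± 0.00181 and 0.874% ± 0.0217 (SD, n = 2). The ratio of large to small subunit counts was 2.02 and 1.95 with no drug and 1.91 and 2.01 with Erastin, and the groups overlapped.

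Gene by gene, 75 of the 77 members passed the filter. The test was the quasi-likelihood test of edgeR, with Benjamini-Hochberg adjustment over all genes tested. At an adjusted p under 0.05, 37 members fell and 7 rose, and 31 did not pass. Among all 16751 genes tested, 23.7% fell and 23.2% rose by the same rule. Members are abundant genes, and among the 2363 genes with a mean over 100 CPM 30.4% fell and 37.5% rose. The median log2 fold change of the 75 members was -0.21, and their middle 50% lay between -0.42 and -0.01. At the study's stricter threshold, at least 2-fold and an adjusted p under 0.05, 1 member fell (RPL10A) and 2 rose, RPL7A among them, beside 9.34% and 6.24% of all genes tested. Without control replicate 1 the number past this threshold was 5 in place of 3, and without Erastin replicate 2 the log2 fold change of RPL7A was 0.04. The Erastin libraries lay below both control libraries in 45 of the 75 members and above both in 11, beside 36.9% and 36.7% of all genes tested.

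In the large subunit 24 of 46 members fell (52.2%) and 4 rose (8.70%), beside 23.7% and 23.2% of all genes tested. The shares among genes over 100 CPM were 30.4% and 37.5%. The median log2 fold change of the large subunit members was -0.21. In the small subunit 13 of 29 tested members fell (44.8%) and 3 rose (10.3%), with a median of -0.10. The order of these medians turned when Erastin replicate 1 was left out, with -0.26 for the small and -0.21 for the large subunit. In the other settings it held, while the gap varied. The small subunit median was -0.05 under library totals, beside -0.16 for the large subunit, and -0.17 with DESeq2, beside -0.21. Without the members whose exons recur on alternate scaffolds the medians were -0.17 for the small and -0.21 for the large subunit.

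**Figure D1:**
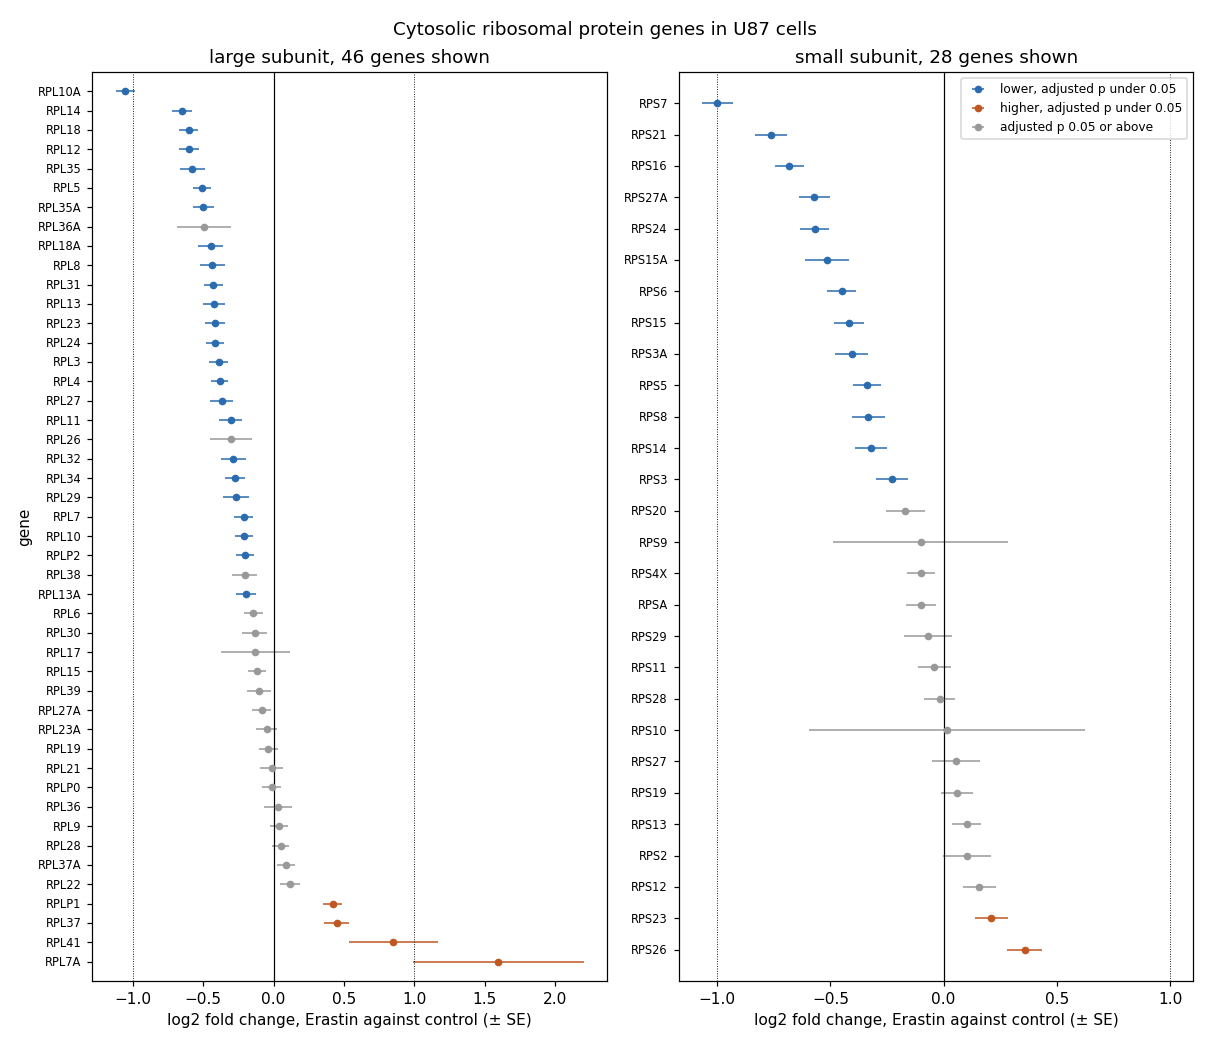
Log2 fold change of Erastin-treated against control cells (x axis, points, with standard errors as bars) for 74 of the ribosomal protein genes tested (y axis), large subunit left and small subunit right, on different x scales. Dotted lines mark 2-fold, and the genes in blue (37) were lower and those in orange (6) higher at an adjusted p under 0.05.

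**Figure D2:**
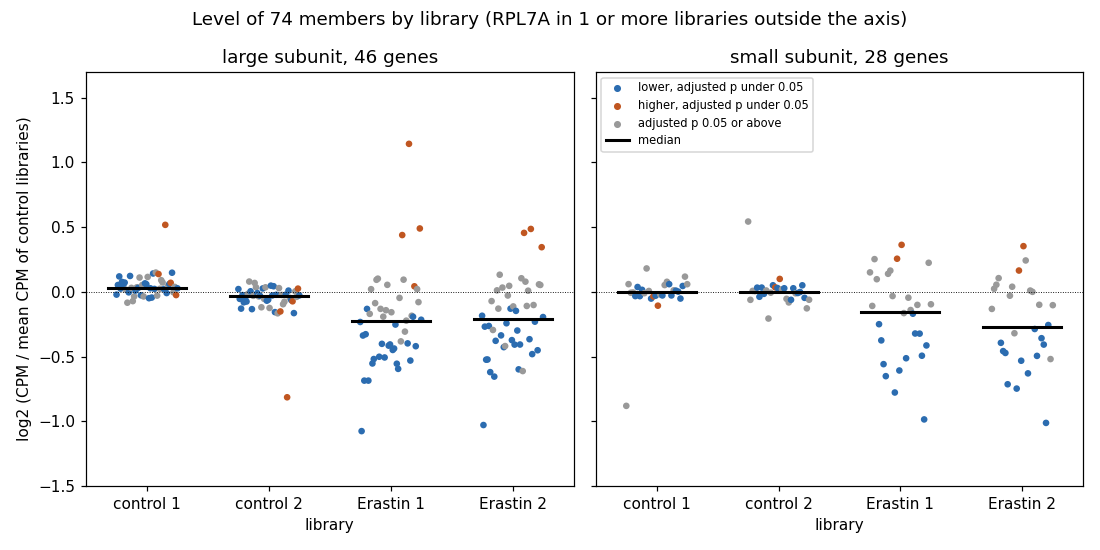
Level of 74 tested members in the 4 libraries, as the log2 of its CPM over the mean CPM of the control libraries (y axis), with the median as a black bar. The control libraries lie around 0 by construction, since their mean sets the scale, and most points of both Erastin libraries lie below 0.

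RPL10A, a protein of the large subunit, fell most. Its gene (ENSG00000198755) lies on chromosome 6 of GRCh38 from 35468408 to 35470785. It was at 254 and 236 CPM in control and at 116 and 120 CPM in Erastin-treated cells. The groups were far apart and the replicates close, and the log2 fold change was -1.05 ± 0.0693 (SE; edgeR adjusted p = 2.18e-07). RPS7 (ENSG00000171863, chromosome 2, 3575205 to 3580919), a small subunit protein that also binds HDM2, was at 282 and 303 CPM in control and 148 and 145 CPM in Erastin-treated cells. Its log2 fold change of -0.9996 ± 0.0677 (SE; edgeR adjusted p = 2.78e-07) stopped just short of the 2-fold threshold.

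RPS21, a small subunit protein, was at 195 and 210 CPM in control and at 118 and 121 CPM in Erastin-treated cells, a log2 fold change of -0.76 ± 0.0688 (SE). RPS16, which lies at the head of the small subunit, went from 406 and 398 CPM to 256 and 245 CPM (-0.68 ± 0.0638). In each of these genes the groups did not overlap and the replicates differed by far less than the groups did. Of the large subunit, RPL14 (-0.65), RPL18 (-0.60), RPL12 (-0.60) and RPL35 (-0.58) followed, with edgeR adjusted p of at most 0.000241. RPS27A, made as a fusion of ubiquitin with the ribosomal protein, and RPS24 both fell by 0.57 on the log2 scale (edgeR adjusted p of at most 2.86e-05). With each library left out, the log2 fold change lay between -0.63 and -0.51 in RPS27A and between -0.61 and -0.53 in RPS24.

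Most of these genes start at or next to a run of pyrimidines, and the starts of the 6 members that fell most are shown as 30 bases, 15 before the RefSeq start and 15 from it on. The bases are those of GRCh38.p14 on the gene's strand, written 5′ to 3′, and capitals mark the longest run of pyrimidines in the window:
RPL10A (chr6:35468386-35468415, plus strand): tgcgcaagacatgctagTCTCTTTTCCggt
RPS7 (chr2:3575245-3575274, plus strand): gtttccgCCCTCCTCCTCgcgctgtttccg
RPS21 (chr20:62387088-62387117, plus strand): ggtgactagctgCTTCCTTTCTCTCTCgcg
RPS16 (chr19:39435935-39435964, minus strand): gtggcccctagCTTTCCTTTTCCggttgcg
RPL14 (chr3:40457324-40457353, plus strand): gggcgggTCTTCTTCCTTCTCgcctaacgc
RPL18 (chr19:48619164-48619193, minus strand): accccagcccgTTCTCTCTTTCCggacctg
The windows of the members that rose and have an entry are shown for comparison:
RPL7A (chr9:133348203-133348232, plus strand): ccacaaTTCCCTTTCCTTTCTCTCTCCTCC
RPL41 (chr12:56116618-56116647, plus strand): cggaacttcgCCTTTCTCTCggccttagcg
RPLP1 (chr15:69452803-69452832, plus strand): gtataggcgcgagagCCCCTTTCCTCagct
RPS26 (chr12:56041903-56041932, plus strand): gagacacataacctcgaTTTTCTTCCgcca
RPS23 (chr5:82278340-82278369, minus strand): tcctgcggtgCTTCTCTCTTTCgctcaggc
Of the 77 members, 62 had an entry in the RefSeq promoter table. A run of at least 8 pyrimidines stood in the window of some start of 51 of these 62 (82.3%), against 16.5% of all 27305 genes in the table. A C stood at the first transcribed base in 49 of the 62 (79.0%), against 18% of all genes. The run was present in 23 of 29 members that fell, in 5 of 5 that rose and in 21 of 26 that were not called.

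In addition, 4 short motifs were searched on both strands of the 300-base promoters, 250 bases before the start and 50 from it, and none of the motifs contains another. CCGGAAG, bound by ETS factors, stood in 22 of the 62 members (35.5%) and in 12.2% of all genes. It was found in 15 of 29 members that fell, in 5 of 26 that were not called and in 0 of 5 that rose. AANATGGCG, the YY1 motif, stood in 8 members (12.9%) against 3.85% of all genes. CACGTG, the E-box of MYC, stood in 4 members (6.45%) against 8.77%, and TATAAA in 5 (8.06%) against 14.0%. These counts describe letters in a window, and whether a factor was bound there was not tested.

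Of the 7 members that rose, 4 had no log2 ratio between replicates above 0.5 in size. The largest of these was -0.29, between the control libraries of RPL37. RPLP1, an acidic protein of the stalk that recruits elongation factors, was at 691 and 716 CPM in control and at 988 and 893 CPM in Erastin-treated cells (log2 fold change 0.42 ± 0.0685 SE; edgeR adjusted p = 0.000349). RPL37, a small protein of the large subunit, went from 188 and 154 CPM to 232 and 235 CPM (0.45 ± 0.0876). RPS26, which contacts messenger RNA near the exit channel, went from 192 and 221 CPM to 266 and 264 CPM (0.36 ± 0.0763). The groups did not overlap in any of them. With each library left out, the log2 fold change lay between 0.34 and 0.49 in RPLP1, 0.30 and 0.60 in RPL37, and 0.26 and 0.46 in RPS26. RPS23, a protein of the decoding centre, rose least, from 78.7 and 82.6 CPM to 96.3 and 90.4 CPM (0.21 ± 0.0730, edgeR adjusted p = 0.0328). Its call was lost with DESeq2 (adjusted p = 0.0611) and without control replicate 1 or either Erastin library, with an adjusted p of up to 0.243.

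Of the others, RPL41 and RPL7A had uneven or low counts. RPL41 (ENSG00000229117, chromosome 12, 56116586 to 56117943), the smallest ribosomal protein, was at 324 and 129 CPM in control and at 500 and 317 CPM in Erastin-treated cells. Erastin replicate 2 thus lay below control replicate 1, and the groups overlapped. The log2 fold change was 0.85 ± 0.313 (SE; edgeR adjusted p = 0.0419), but the adjusted p was 0.381 with DESeq2. With each library left out the log2 fold change lay between 0.33 and 1.66. With a replicate block it was 0.96 (edgeR adjusted p = 2.70e-07), for a pairing that the labels do not state. RPL7A (ENSG00000148303, chromosome 9, 133348214 to 133351426), a large subunit protein, had 25 and 23 counts in control and 24 and 123 in Erastin-treated cells. Its call rested on the second Erastin library. Without that library the log2 fold change was 0.04 (edgeR adjusted p = 0.968), against 1.60 ± 0.605 (SE; adjusted p = 0.0478) with it.

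Some regions of GRCh38 have second versions on alternate scaffolds. A read from a word found there matches 2 places if the scaffolds are part of the index that was aligned to, and reads that matched several places were not counted. Whether the scaffolds were in the authors' index is not given in the sources used here, and their part in the counts was not tested. Of the 100-base words of their exons, 100% in RPS18 and 92.1% in RPS9 recurred on these scaffolds, and both genes had few counts. RPS18, at the head of the small subunit and among the most used reference genes, had 1 count in control replicate 1 and 0 in the other libraries. RPS9, which helps to set decoding accuracy, had 56 and 48 counts in control and 59 and 37 in Erastin-treated cells. In RPL41 26.3% of the words and in RPS15A 11.2% recurred in this way. Among protein-coding genes with at least 90% of their words on these scaffolds, 448 of 607 had under 10 counts in all, against 5111 of 19098 others (73.8% and 26.8%). Of those tested, replicates of 1 group differed more than 2-fold in 49 of 123 (39.8%) against 118 of 12729 (0.927%). Genes of this kind thus had low and uneven counts in these libraries.

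RPS25 (ENSG00000118181, chromosome 11, 119015712 to 119018691), which takes part in initiation at internal ribosome entry sites, also had 1 count in control replicate 1 and 0 elsewhere. None of its words recurred on the scaffolds used here. It did not stand alone in its region. Of the 11 other protein-coding genes that start within 100 kb of it, 5 were listed at 0 in every library, namely FOXR1, CENATAC, TRAPPC4, SLC37A4 and HYOU1, which were picked out after their values were seen. RPS18 and RPS25 are therefore only listed at or near 0, and nothing is said of their expression.

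**Figure D3:**
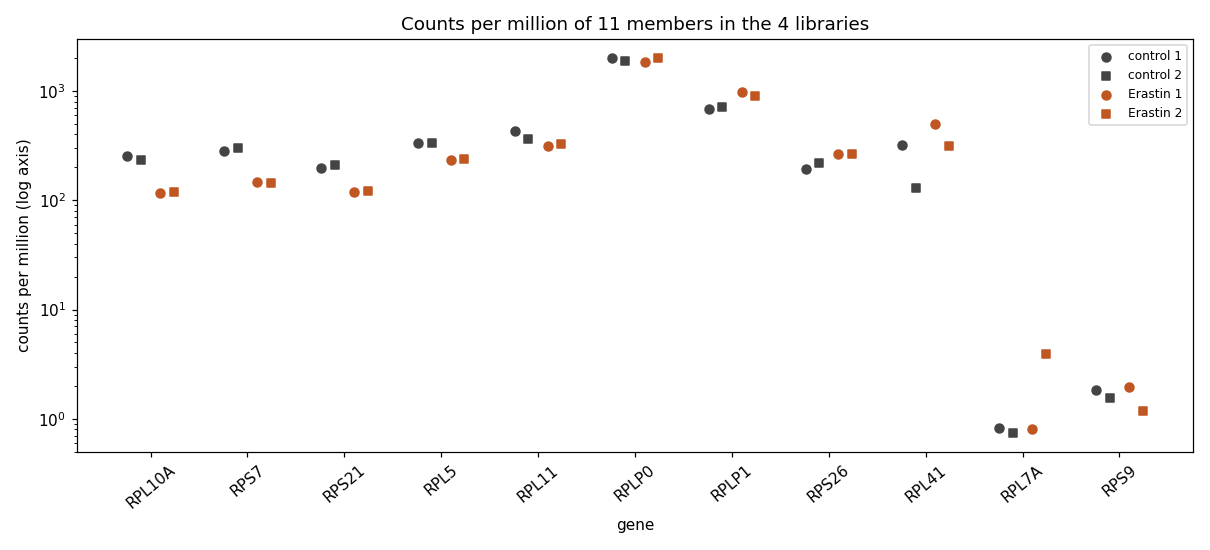
CPM (y axis, log scale) of 11 members (x axis) in the 2 control libraries (grey) and the 2 Erastin libraries (orange), replicate 1 as circles and replicate 2 as squares. The groups separate in RPL10A, RPS7 and RPS21, and overlap in RPLP0, RPL41, RPL7A and RPS9.

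The proteins of the stalk did not move together. RPLP0, its anchor and a common reference gene, was at 1999 and 1895 CPM in control and at 1842 and 2019 CPM in Erastin-treated cells. The groups overlapped, and the log2 fold change was -0.01 ± 0.0679 (SE), with a sign that turned under library totals (0.04). RPLP1 rose by 0.42, while RPLP2, its partner in the stalk, fell from 305 and 293 CPM to 257 and 261 CPM (-0.21 ± 0.0635, edgeR adjusted p = 0.0193). The call on RPLP2 was lost with either Erastin library left out (adjusted p up to 0.146). RPL12, at the stalk base, fell by 0.60.

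RPL5 and RPL11, which carry the 5S RNA into the large subunit and, when unassembled, bind HDM2 and so protect p53, both fell. RPL5 was at 332 and 337 CPM in control and at 231 and 239 CPM in Erastin-treated cells (log2 fold change -0.51 ± 0.0634 SE; edgeR adjusted p = 4.43e-05). RPL11 was at 430 and 362 CPM and then at 313 and 329 CPM (-0.30 ± 0.0819, edgeR adjusted p = 0.00952). The groups did not overlap in either gene. Without Erastin replicate 1 the adjusted p of RPL11 was 0.0843.

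Around the exit of the peptide tunnel, RPL31 (-0.43) and RPL35 (-0.58) fell, which is 25% of 8 members, near the 23.7% of all genes tested. The other 6 did not pass the test. Among the latter, RPL22 was at 115 and 120 CPM in control and 126 and 129 CPM in Erastin-treated cells (log2 fold change 0.12, edgeR adjusted p = 0.181). At the head of the small subunit 5 of 12 tested members fell (41.7%) and 1 rose (8.33%), with a median of -0.12. Of the other 17 small subunit members 8 fell (47.1%) and 2 rose (11.8%), with a median of -0.10. Among all genes tested 23.7% fell and 23.2% rose.

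Several members are known for roles beyond the ribosome's core. RPS6, the substrate of the S6 kinases downstream of mTOR, fell from 411 and 410 CPM to 292 and 310 CPM (-0.45 ± 0.0643 SE, edgeR adjusted p = 0.000123). RPS3, at the entry of the messenger RNA and also a DNA repair protein, was at 364 and 335 CPM and then at 311 and 286 CPM (-0.23). RPL10, which joins the large subunit last, was at 605 and 623 CPM and then at 522 and 540 CPM (-0.21). RPL13A, a silencer of inflammatory messages when phosphorylated, was at 624 and 579 CPM and then at 549 and 501 CPM (-0.20). These 3 falls were small, and each lost its call with some library left out, with adjusted p of up to 0.229, 0.158 and 0.337.

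RPSA, also known as a laminin receptor, was at 1089 and 1002 CPM in control and 978 and 973 CPM in Erastin-treated cells, with a log2 fold change of -0.10 that did not pass (edgeR adjusted p = 0.236). RPS19, the gene most often mutated in Diamond-Blackfan anaemia, was at 590 and 599 CPM and then at 655 and 582 CPM. RPS27, a zinc finger protein of the small subunit, was at 243 and 250 CPM and then at 220 and 292 CPM. The groups overlapped in RPS19 and RPS27, with log2 fold changes of 0.06 and 0.05.

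Replicates of most members agreed. The median absolute log2 ratio of the replicates was 0.0871 in control and 0.0988 in Erastin-treated cells over the 75 members, against 0.143 and 0.128 over all genes tested and 0.0767 and 0.0552 over the genes above 100 CPM. For these ratios 0.5 CPM was added to each level. In 58 of 75 members neither ratio exceeded 0.25 in size. The same held for 9552 of all 16751 genes tested and for 2155 of the 2363 genes above 100 CPM. By both measures the members were less even than the genes above 100 CPM. In 5 members a ratio exceeded 0.5, among them RPL7A (1.76 between the Erastin libraries), RPL41 (-1.33 in control and -0.66 in Erastin-treated cells), RPS10 (0.77 in control) and RPS9 (-0.56 in Erastin-treated cells). A ratio above 0.5 was found in 6 of the 2363 genes above 100 CPM, and RPL41 is in that class. RPL41 and RPL7A, which both rose, were thus among the members with the least even replicates.

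**Figure D4:**
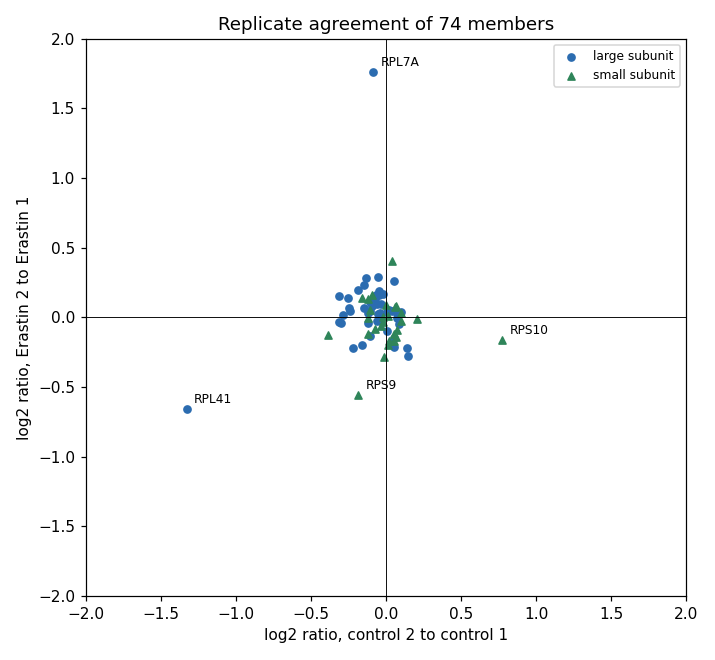
Log2 ratio of replicate 2 to replicate 1 in control (x axis) and Erastin-treated cells (y axis) for 74 of the 75 members tested, large subunit as circles and small subunit as triangles. Most points lie near 0, and RPL7A, RPL41, RPS10 and RPS9 are named.

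Sharing of sequence can lower or shift the counts of these genes. Between 2.31% (RPL11) and 37.2% (RPS10) of the 31-base words of a member's exons occurred elsewhere in the primary assembly. All annotated exons enter these shares, and they exceed the canonical transcript, as in RPL21 with 2249 bases against 566. The shares are therefore not shares of the mature message. Longer words of 100 bases did so for 28.0% in RPL41, and for 10.5% to 12.4% in RPS10, RPS3A, RPS15A, RPL7 and RPL22. Counts of these genes are uncertain, since reads from shared stretches were left out. Across the 75 members the larger of the 2 replicate ratios and the shared 31-base share had a Spearman rho of 0.23, given as a description of genes that share the same 4 libraries.

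Some members share exons with readthrough genes, and reads on shared exons were counted for neither gene. The shares below are again of all annotated exon bases. Shared bases number 871 in RPL17 and 333 in RPL36A, whose canonical transcripts have 614 and 761 bases. RPS10 (44.6% of its exon bases shared, the most with RPS10-NUDT3) had 11 and 30 counts in control and 22 and 19 in Erastin-treated cells. RPL17 (35.3%, with RPL17-C18orf32) had 116 and 132 counts and then 122 and 103. The groups overlapped in both genes. RPL36A (8.40%, with RPL36A-HNRNPH2) had 226 and 239 counts in control and 173 and 155 in Erastin-treated cells. Its log2 fold change of -0.49 ± 0.192 (SE) did not pass the test (edgeR adjusted p = 0.0528). The DESeq2 adjusted p was 0.157. The edgeR adjusted p was 0.0483 with the replicate block and 0.0473 with protein-coding genes only. Of the exon bases of RPL10 55.5% lie in exons of other genes, the most in DNASE1L1, which is a separate gene and no readthrough, and its counts lay between 15623 and 19354.

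The table held 1587 pseudogenes named for a member, of which 550 had a count in some library and 127 were tested. Of these 21 fell and 7 rose, lower shares than the 23.7% and 23.2% of all genes tested, and the median of their log2 fold changes was -0.23. For every 100 counts of members they took 4.61 and 4.60 in control cells, and 4.66 and 4.64 with Erastin.

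Several members have a paralogue, a second gene for a near copy of the protein that is often used in particular tissues or states. RPL22L1 was at 139 and 161 CPM in control and at 23.5 and 23.6 CPM in Erastin-treated cells, a log2 fold change of -2.67 ± 0.0896 (SE; edgeR adjusted p = 1.01e-09). RPL22 itself did not pass the test. RPL39L was at 9.48 and 6.31 CPM and then at 2.14 and 3.15 CPM (-1.57 ± 0.271, edgeR adjusted p = 0.000504), where RPL39 gave -0.10 (adjusted p = 0.368).

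RPS27L, known as a p53 target, rose from 149 and 161 CPM to 321 and 352 CPM (1.12 ± 0.0731 SE, edgeR adjusted p = 2.07e-07), where RPS27 gave 0.05. RPL36AL went from 39.4 and 39.5 CPM to 62.8 and 69.6 CPM (0.75 ± 0.0850), and RPL7L1, which takes part in ribosome assembly, from 111 and 105 CPM to 179 and 174 CPM (0.70 ± 0.0684). The groups did not overlap in any of these 5 paralogues, beside 36.7% (higher) and 36.9% (lower) of all genes tested. RPL26L1 gave 0.01 (edgeR adjusted p = 0.930). RPL3L, a gene of striated muscle, had 4, 4, 2 and 10 counts and RPL10L, a gene of the testis, 0 in all libraries, and neither was tested. So 3 of 6 tested paralogues rose (50%) and 2 fell (33.3%), beside 23.2% and 23.7% of all genes tested. The start windows of 4 paralogues are shown as above:
RPL22L1 (chr3:170870181-170870210, minus strand): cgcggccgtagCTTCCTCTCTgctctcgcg
RPS27L (chr15:63157463-63157492, minus strand): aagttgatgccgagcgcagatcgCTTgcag
RPL36AL (chr14:49620612-49620641, minus strand): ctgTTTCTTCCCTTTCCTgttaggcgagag
RPL7L1 (chr6:42879601-42879630, plus strand): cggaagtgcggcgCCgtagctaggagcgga
RPL22L1, which fell, and RPL36AL, which rose, both have a C at the start within a run of pyrimidines, while RPS27L and RPL7L1 have no run of more than 3.

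**Figure D5:**
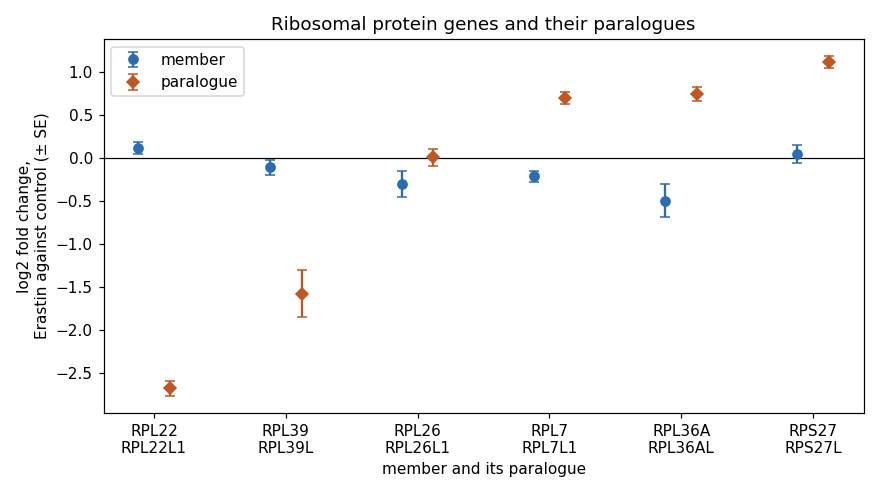
Log2 fold change of Erastin-treated against control cells (y axis, with standard errors) of 6 members (blue circles) and their paralogues (orange diamonds), paired by name on the x axis. RPL22L1 and RPL39L lie far below their partners and RPS27L, RPL36AL and RPL7L1 above.

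FAU, made as a fusion of a ubiquitin-like protein with a ribosomal protein, lies outside the naming rule above. It was at 109 and 93.3 CPM in control and at 95.6 and 87.7 CPM in Erastin-treated cells (log2 fold change -0.14, edgeR adjusted p = 0.204), and the groups overlapped. RPS27A, the fusion inside the rule, fell by 0.57.

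Other genes whose messages carry a TOP sequence encode elongation and initiation factors and RNA-binding proteins. Of 17 such genes 16 were tested, and 9 fell (56.3%) and 1 rose (6.25%), beside 23.7% and 23.2% of all genes tested and 30.4% and 37.5% of those over 100 CPM. Their median log2 fold change was -0.24. EEF1A1, which brings transfer RNA to the ribosome, fell from 192180 and 188595 counts to 115380 and 113832 counts (-0.72), and RACK1, a scaffold on the small subunit, by 0.69. TPT1, a growth-related protein under TOP control, was the gene that rose (0.54). EEF1B2, an exchange factor for EEF1A1, was the 1 gene past the 2-fold threshold. It was at 67.8 and 144 CPM in control and at 46.6 and 8.85 CPM in Erastin-treated cells, so its replicates were far apart. Its log2 fold change was -1.94 ± 0.516 (SE; edgeR adjusted p = 0.00876), which DESeq2 did not call (adjusted p = 0.181) and which lay between -3.58 and -1.18 with a library left out.

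Of 52 assembly factors, which build ribosomes, 51 were tested, and 19 rose (37.3%) while 6 fell (11.8%). Among all genes tested 23.2% rose and 23.7% fell, and among those with a mean over 100 CPM 37.5% rose and 30.4% fell. The median log2 fold change of the assembly factors was 0.17. RRP12, which exports the subunits from the nucleus, rose by 0.95, and SBDS, which releases EIF6 from the large subunit, by 0.87. RPF2, which brings RPL5, RPL11 and the 5S RNA to the large subunit, rose by 0.60, and RSL24D1, which holds the place of RPL24 during assembly, also by 0.60. NOP58, a core protein of the box C/D small nucleolar particles, fell by 0.50. Of 14 genes of RNA polymerase I and its factors 13 were tested, and 2 rose (15.4%) while 1 fell (7.69%), with a median of -0.08. POLR1A, the largest subunit of the enzyme, rose by 0.41. These examples were chosen after their values were seen.

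Of 9 regulators of ribosomal protein synthesis 1 rose and 1 fell (11.1% each), lower shares than the 23.2% and 23.7% of all genes tested. MYC, which drives ribosomal genes, had 1871 and 2179 counts in control and 1086 and 1097 in Erastin-treated cells (log2 fold change -0.88 ± 0.0918 SE). RPTOR, the subunit that defines mTOR complex 1, had 2438 and 2311 counts and then 3640 and 3641 (0.62 ± 0.0725). The groups did not overlap in either gene. MTOR (0.04) and LARP1 (0.02) did not pass the test. Of 13 genes of ribosome quality control 4 rose (30.8%) and 2 fell (15.4%), near the 23.2% and 23.7% of all genes tested. ASCC3, the helicase that splits collided ribosomes, went from 103 and 100 CPM to 211 and 231 CPM (1.12 ± 0.0711 SE, edgeR adjusted p = 1.56e-07), and LTN1, the ligase that marks stalled chains, fell by 0.49.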

How the data were processed

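Total RNA of U87 cells was extracted with TRIzol and sequenced by the authors in 4 libraries, 2 control and 2 Erastin, which the series calls biological replicates. The deposited values are counts of reads per gene on the Ensembl release 90 annotation of GRCh38, not normalized. Per the file headers they were made by featureCounts 2.0.3 in paired mode with reads of a pair counted separately, unstranded, and with reads matching several places or genes left out. The submitters' processing notes name HISAT2 2.1.0 and featureCounts 2.0.4, whereas the paper's methods name htseq-count. The deposited values were treated as estimated counts and tested for decimals: 0 values were not whole, so rounding changed none.

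Symbols were joined by Ensembl identifier, and 57532 of 58302 genes had one. Tests were run in edgeR 4.0.16 under R 4.3.3 (filterByExpr with a minimum count of 10, TMM, quasi-likelihood test, two-sided, Benjamini-Hochberg). The biological coefficient of variation was 10.3%, and standard errors came from the fold change and its F statistic. CPM used library totals over the genes tested times the TMM factor. Counts of 16751 genes were simulated for this comparison, with the same dispersion for every gene. In these, edgeR recovered 82 of 90 genes changed by 1.5 and 110 of 110 changed by 2 on the log2 scale. It called 8 unchanged genes. Smaller changes, as in most members, and genes with uneven replicates were not simulated, so recovery of such changes was not measured. Exon words of 100 bases were looked up on the alternate scaffolds of GRCh38, and words of 31 and 100 bases in its primary assembly. Gene types and lengths came from GENCODE 44, and promoters from the RefSeq table of GRCh38.p14. Alternatives were DESeq2 1.42.0, RLE factors, library totals, no filter, at least 10 counts in every library, a replicate block, each count divided by 2 and rounded up, protein-coding genes only, each library left out, members at least 50% covered by other genes left out, and fusion genes outside the naming rule added. Leaving out members with at least 50% of words on alternate scaffolds was added after the data were seen.

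Genes named in the text were members past 2-fold, the 10 largest rises and falls among called members, members with a role of their own, the 5 with the least even replicates, those that failed the filter, all paralogues, fusions, and genes of other lists past 2-fold. A few genes that this rule or a marker list takes in are not reported here, and the figures leave them out, while counts and medians over the members hold them. Others were chosen after their values were seen. The members and lists were chosen with earlier results of these data known. ChIP-seq and HiChIP data were not analysed here.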

Additional observations from a re-analysis of the deposited data

How the results depend on the processing

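With each library left out in turn, 29 to 44 members fell, 5 to 8 rose and 3 to 5 passed the 2-fold threshold, and the median log2 fold change lay between -0.26 and -0.18 over all members, -0.27 and -0.18 for the large and -0.26 and -0.14 for the small subunit. Library totals without a composition factor gave medians of -0.16 for all members, -0.16 for the large and -0.05 for the small subunit, where the median of all genes was 0.05. DESeq2 called 4 members higher in place of 7. The small subunit median was -0.17 with DESeq2, -0.17 without a filter, which adds RPS18 and RPS25, and -0.17 without members on alternate scaffolds. Across 48 single genes tested under up to 12 alternatives, no called result changed sign, 545 kept their side of the threshold, 25 lost their call and 4 gained one. The control and Erastin libraries share replicate numbers without a stated pairing, and the deviations of same-numbered libraries had a correlation of 0.0293. With the replicate block 38 members fell and 7 rose, and the small subunit median was -0.13. Dividing each count by 2 left RPL7A uncalled (edgeR adjusted p = 0.0526). The cause of these differences was not tested. Low counts limit what can be said of RPL7A, RPS9, RPS10, RPS18 and RPS25, which had at most 123 counts in a library. Why their counts were low was not tested.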

Other observations

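Outside the ribosome, the marker lists also held genes that changed by more than 2-fold. NES, an intermediate filament protein of neural progenitors, was at 41.8 and 31.3 CPM in control and at 3.51 and 2.45 CPM in Erastin-treated cells (log2 fold change -3.62 ± 0.194 SE; edgeR adjusted p = 3.97e-08). CHI3L1, a secreted glycoprotein of mesenchymal glioma, fell from 184 and 220 CPM to 42.3 and 42.1 CPM, and VIM and CD44 fell by 0.60 and 0.36 on the log2 scale. Of the 10 glial and glioma markers 7 were tested, and 2 of the 7 log2 fold changes were positive. At an adjusted p under 0.05, 4 fell (57.1%), 0 rose and 3 did not pass, beside 23.7% falling and 23.2% rising among all genes tested. SNAP25, a vesicle fusion protein of neurons, fell from 35.0 and 39.1 CPM to 3.18 and 4.30 CPM. Of the 4 neuron markers 3 were tested, and 1 of the 3 log2 fold changes was positive. By the same rule 2 fell (66.7%), 0 rose and 1 did not pass, and only SNAP25 was past 2-fold. Of the endothelial markers, PECAM1 went from 4.51 and 6.05 CPM to 1.04 and 1.05 CPM, while VWF had 4 and 4 counts in control and 17 and 32 in Erastin-treated cells. The call on VWF was lost without either control library or Erastin replicate 2, with an edgeR adjusted p of up to 0.215.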
